A study of Mus musculus with 8 samples.

Results

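Aminoacyl-tRNA synthetases are the enzymes that join each amino acid to its transfer RNA, and so set which amino acid is read at which codon. One set works in the cytosol and serves the ribosomes that translate nuclear genes, and another, also encoded in the nucleus, is imported into mitochondria and serves the ribosomes that translate the mitochondrial genome. In vertebrates several cytosolic enzymes are held together in a multisynthetase complex, and Gars and Kars each encode both the cytosolic and the mitochondrial form of their enzyme. In the mouse, the 2-cell stage is when stored maternal mRNAs are cleared and the embryo's own genome is switched on, so that an mRNA level at this stage combines what the oocyte left and what the embryo has made.

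A list of 36 synthetase genes was followed, 20 cytosolic and 16 mitochondrial (symbols that end in 2), out of 37310 genes in the deposited table, and all 36 were found by symbol. Members were taken by gene name; the rule uses no measured value, but the list was drawn up with earlier results of these data known. The study exposed mouse embryos in culture to triclocarban, an antimicrobial agent of soaps, and its title names the change from maternal to zygotic control and epigenetic marks as the question. The 4 treated libraries came from 2-cell embryos grown from fertilized eggs in G1 medium with 6 µM triclocarban. The 4 control libraries came from 2-cell embryos in the same medium with an equal volume of DMSO, the solvent. No source used here gives the mouse strain, how many embryos made a library, at which hour they were taken or whether a group's libraries were separate cultures. The p-values therefore rest on a spread between libraries that may be technical.

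Levels were in FPKM, fragments scaled by transcript length and by the mapped fragments of the library, so that genes can be compared with each other. They are shares of the RNA sequenced in each library, so that fewer transcripts per embryo and a larger total of other transcripts cannot be told apart. The deposited FPKM gave no fragment counts, and the depth of each library is unknown. Means are given ± SD over the 4 libraries of a group. Levels of 1 FPKM or more were reached by 11788 to 11957 genes in treated libraries and 12828 to 13541 in controls. All 12 oocyte and early embryo markers were above 1 FPKM in every library, with sums of 8029 to 11736 FPKM in treated libraries and 2994 to 6875 FPKM in controls. Of 14 markers of cumulus and granulosa cells, which surround the oocyte, 10 were under 1 FPKM in every library. The anti-Müllerian hormone gene Amh was at 0. The sums were 10.8 to 19.2 FPKM in treated libraries and 5.60 to 11.5 FPKM in controls. Those that reached 1 FPKM in any library went different ways. Cyp19a1 had means of 8.33 FPKM in treated libraries and 2.34 FPKM in controls, and Fshr 3.04 and 0.921 FPKM. Tnfaip6 had means of 0.331 FPKM in treated libraries and 3.30 FPKM in controls, and Ptgs2 0.376 and 0.831 FPKM. Of 10 sperm and spermatid markers 7 were under 1 FPKM in every library and Smcp was at 0. The sperm list had sums of 8.04 to 12.8 FPKM in treated libraries and 1.12 to 6.96 FPKM in controls, without overlap. Much of this sum was Prm2, with means of 7.73 FPKM in treated libraries and 2.24 FPKM in controls. The sums of oocyte and early embryo markers did not overlap either, though Zp3 and Zfp352 went the other way and were lower in every treated library. Much of these sums was Btg4 and Oosp1. Btg4 had means of 4269 FPKM in treated libraries and 1635 FPKM in controls, and Oosp1 2838 and 1672 FPKM. The part of any of these in the results on synthetases was not tested. Controls 1 and 2 lay apart from controls 3 and 4, and triclocarban library 2 apart from the other treated libraries, for many genes. Correlations of log2 levels across tested genes ran from 0.909 to 0.982 within triclocarban libraries, 0.874 to 0.976 within controls and 0.696 to 0.884 between the groups. Mitochondrially encoded genes made up 11.1 to 17.6% of summed FPKM in treated libraries and 16.6 to 24.3% in controls, and the fit on values rescaled without them changed 2 calls among synthetases, those of Nars and Farsb.

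With triclocarban the synthetase genes did not move as a block. Of the 19 cytosolic genes tested, 4 were higher (Lars, Nars, Tars and Wars), 6 were lower (Aars, Hars, Mars, Qars, Rars and Yars) and 9 did not pass the threshold. Of the 10 mitochondrial genes tested, Rars2 was higher, 4 were lower (Cars2, Ears2, Mars2 and Tars2) and 5 did not pass. The test was limma on log2(FPKM + 1), with a Benjamini-Hochberg adjusted p under 0.05 over the 12941 genes that reached 1 FPKM in 4 or more of all 8 libraries. Across all genes tested 42.1% were called, 11.3% higher and 30.8% lower. The cytosolic counts come to 52.6% called, 21.1% higher and 31.6% lower, and the mitochondrial ones to 50% called, 10% higher and 40% lower, so that the share of lower genes among cytosolic enzymes was close to that of all genes. The median log2 change was -0.01 for the cytosolic genes tested and -0.47 for the mitochondrial ones, beside -0.19 for all genes tested. These counts cover only the members that passed the filter on low values, and members that passed it through the controls alone, Ears2 and Mars2 among them, had to be lower with triclocarban.

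The split of calls depended on how the libraries were scaled. After median-of-ratios scaling the median change of all genes tested was 0.06 in place of -0.19, and cytosolic genes stood at 8 higher and 4 lower, mitochondrial genes at 2 higher and 3 lower. Across all genes the same scaling gave 20.4% higher and 24.6% lower. Quantile normalization gave the same cytosolic counts, and 3 higher and 3 lower among mitochondrial genes, where all genes stood at 22.5% higher and 22.0% lower. Of the 15 members called, 9 stayed past the threshold in the same direction under every alternative in which they were tested: Aars, Mars, Rars, Tars, Yars, Cars2, Ears2, Mars2 and Rars2 (Mars, Ears2 and Rars2 were not tested where a mean of at least 5 FPKM was required). The other 6, Hars, Lars, Nars, Qars, Wars and Tars2, each lost the call under some alternatives. Among the 9, Ears2 and Mars2 passed the filter through the controls alone, so that their direction was set wherever that filter was used.

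**Figure D1:**
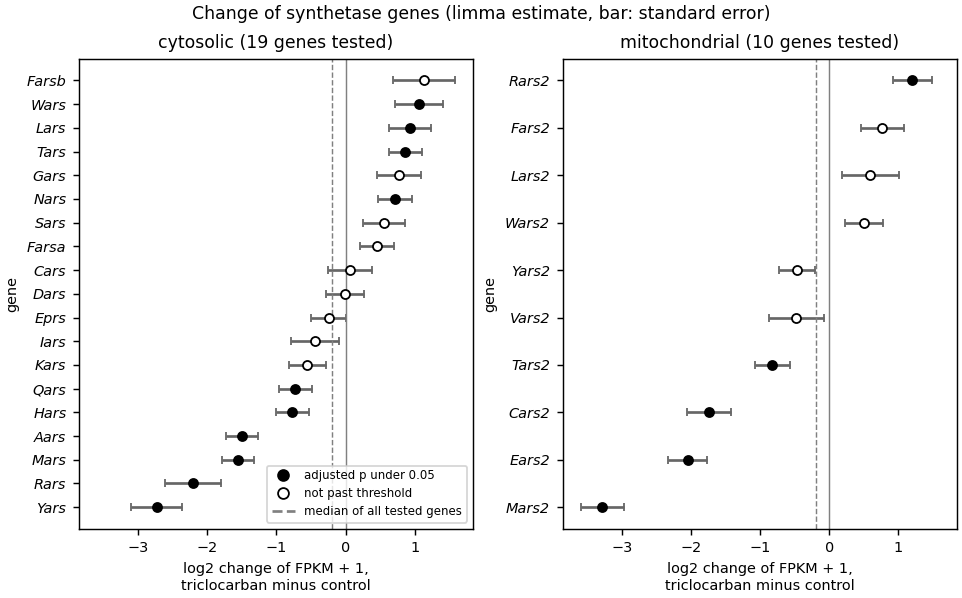
Log2 change of FPKM + 1 (triclocarban minus control, horizontal axis) for the 19 cytosolic genes (left) and the 10 mitochondrial genes (right) tested, as the limma estimate with its standard error. Filled points passed an adjusted p of 0.05 and the dashed line is the median of all genes tested, -0.19; the changes run from -2.73 (Yars) to 1.13 (Farsb) among cytosolic genes and from -3.28 (Mars2) to 1.20 (Rars2) among mitochondrial genes.

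The promoters of these genes are shown because cytosolic synthetase genes are known targets of ATF4, the transcription factor of the amino acid response, which binds with C/EBP partners to a composite element with the core TGATGNAA. RefSeq promoter windows (GRCm38.p6, the assembly of mm10) ran from 250 bases before to 50 bases after the start. They were matched by symbol for 26 of the 36 genes, as 27 windows. No window was matched for Cars, Hars, Lars, Mars, Nars, Rars, Vars, Wars, Hars2 and Pars2, which were not searched. The core was searched on both strands and lay in 5 of 12 cytosolic windows, those of Aars, Gars, Iars, Tars and Yars, and in 0 of 15 mitochondrial windows; 3.97% of all 32851 windows hold it. The E-box CACGTG of MYC and its relatives lay in 4 cytosolic windows and in 1 mitochondrial window (7.15% of all windows). The ETS core CCGGAAG lay in 4 of each (8.86% of all windows). The 5 cytosolic windows with the ATF4 core are followed by those of the 3 mitochondrial genes with the deepest falls. Capitals mark matches to any of these letters on either strand, and the strand named is that of the gene.
Aars, chr8:111033592-111033891, plus strand: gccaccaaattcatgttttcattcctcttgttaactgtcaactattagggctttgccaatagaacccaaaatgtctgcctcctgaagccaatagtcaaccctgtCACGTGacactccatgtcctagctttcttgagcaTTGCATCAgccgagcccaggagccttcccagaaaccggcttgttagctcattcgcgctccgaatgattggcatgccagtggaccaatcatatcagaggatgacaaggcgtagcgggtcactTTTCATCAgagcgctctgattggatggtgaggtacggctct
Gars, chr6:55037751-55038050, plus strand: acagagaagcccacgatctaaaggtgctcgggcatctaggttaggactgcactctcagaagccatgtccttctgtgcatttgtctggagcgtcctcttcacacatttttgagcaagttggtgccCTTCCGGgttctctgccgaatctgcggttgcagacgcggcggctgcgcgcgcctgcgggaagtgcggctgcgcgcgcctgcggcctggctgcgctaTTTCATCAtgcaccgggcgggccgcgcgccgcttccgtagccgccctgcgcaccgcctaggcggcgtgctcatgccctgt
Iars, chr13:49681880-49682179, plus strand: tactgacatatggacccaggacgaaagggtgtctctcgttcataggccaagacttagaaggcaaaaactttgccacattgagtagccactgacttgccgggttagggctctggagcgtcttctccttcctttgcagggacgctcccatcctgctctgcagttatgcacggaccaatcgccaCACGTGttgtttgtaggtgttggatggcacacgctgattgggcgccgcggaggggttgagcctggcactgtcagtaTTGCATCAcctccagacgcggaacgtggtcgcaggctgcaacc
Tars, chr15:11399609-11399908, minus strand: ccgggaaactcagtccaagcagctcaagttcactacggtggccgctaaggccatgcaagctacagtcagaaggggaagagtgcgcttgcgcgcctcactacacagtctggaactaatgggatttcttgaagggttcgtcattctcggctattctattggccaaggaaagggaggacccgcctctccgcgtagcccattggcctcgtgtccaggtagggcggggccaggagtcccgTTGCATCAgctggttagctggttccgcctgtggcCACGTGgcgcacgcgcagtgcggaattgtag
Yars, chr4:129189653-129189952, plus strand: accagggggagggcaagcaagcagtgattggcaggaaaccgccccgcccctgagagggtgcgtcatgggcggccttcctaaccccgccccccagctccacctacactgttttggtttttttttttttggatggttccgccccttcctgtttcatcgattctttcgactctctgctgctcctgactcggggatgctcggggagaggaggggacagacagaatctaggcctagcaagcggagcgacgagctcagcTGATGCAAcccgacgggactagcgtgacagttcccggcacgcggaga
Mars2, chr1:55236927-55237226, plus strand: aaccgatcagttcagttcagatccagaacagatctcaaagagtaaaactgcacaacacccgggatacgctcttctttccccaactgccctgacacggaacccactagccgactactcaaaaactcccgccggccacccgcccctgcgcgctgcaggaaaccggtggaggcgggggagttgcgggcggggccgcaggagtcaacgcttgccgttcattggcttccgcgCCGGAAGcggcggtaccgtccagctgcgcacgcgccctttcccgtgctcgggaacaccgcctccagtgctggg
Ears2, chr7:122067037-122067336, minus strand: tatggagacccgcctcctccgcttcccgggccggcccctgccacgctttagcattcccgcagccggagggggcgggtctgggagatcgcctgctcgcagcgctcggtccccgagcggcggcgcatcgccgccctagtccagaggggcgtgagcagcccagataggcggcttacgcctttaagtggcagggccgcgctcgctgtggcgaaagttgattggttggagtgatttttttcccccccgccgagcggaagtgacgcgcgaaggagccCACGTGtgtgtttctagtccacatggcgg
Cars2, chr8:11550722-11551021, minus strand: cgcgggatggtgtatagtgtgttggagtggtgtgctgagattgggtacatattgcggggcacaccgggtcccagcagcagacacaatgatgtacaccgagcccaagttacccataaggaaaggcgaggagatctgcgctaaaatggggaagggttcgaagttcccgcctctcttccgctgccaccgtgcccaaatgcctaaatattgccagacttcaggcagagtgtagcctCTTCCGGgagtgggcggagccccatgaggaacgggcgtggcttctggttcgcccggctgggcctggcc

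The 5 genes with the ATF4 core, among 12 cytosolic genes searched, went different ways. Hars, Lars, Mars, Nars, Rars and Wars, all called, had no window and were not searched. Aars and Yars were lower, Tars was higher, and Gars (log2 change 0.78) and Iars (-0.44) did not pass the threshold. A match of letters is a description of the sequence and not a measured binding site. Of 22 tested genes of a list for the ATF4 response, 1 was higher (Cth, an enzyme of cysteine synthesis), 8 were lower and 13 did not pass. That is 4.55% higher and 36.4% lower, where 11.3% of all genes were higher and 30.8% lower. The median change of the list was -0.24, near the -0.19 of all genes tested. The 4 genes of the list with the smallest adjusted p are given next. Trib3, which encodes a pseudokinase that restrains this response, had 1.78, 1.88, 1.81 and 1.3 FPKM in triclocarban libraries 1 to 4, against 25.4, 22.1, 26.6 and 20.8 FPKM in control libraries 1 to 4. It was lower in every treated library (log2 change -3.20, standard error 0.23, limma adjusted p = 3.09e-05). Psat1, an enzyme of serine synthesis, had 8.19 ± 2.51 FPKM with triclocarban and 63.8 ± 24.2 FPKM in controls (log2 change -2.79, standard error 0.32, limma adjusted p = 9.37e-05). Sesn2, a leucine sensor, was also lower (log2 change -2.53, standard error 0.26, limma adjusted p = 5.92e-05), and so was Ppp1r15a, for a phosphatase subunit that reverses eIF2 phosphorylation (log2 change -2.76, standard error 0.29, limma adjusted p = 7.05e-05). Atf4 itself had 77.8, 111, 69.0 and 81.7 FPKM in triclocarban libraries 1 to 4, against 131, 124, 133 and 134 FPKM in control libraries 1 to 4 (log2 change -0.64, standard error 0.24, limma adjusted p = 0.0474).

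Among cytosolic genes the deepest fall was that of Yars, the tyrosine enzyme (ENSMUSG00000028811.5, GRCm38 chromosome 4, 129189760 to 129219607, plus strand). Its level was 1.06, 0.35, 0.51 and 1.47 FPKM in triclocarban libraries 1 to 4, against 5.48, 8.59, 18.6 and 15.4 FPKM in control libraries 1 to 4. All 4 treated libraries lay below all 4 controls, as they did for 10 of 29 synthetases and for 30.0% of all genes tested (40.2% without overlap in either direction), and the mean was 14.2-fold lower (0.848 ± 0.513 FPKM with triclocarban and 12.0 ± 6.03 FPKM in controls; log2 change -2.73, standard error 0.37, limma adjusted p = 0.000212). Rars, the arginine enzyme of the complex (ENSMUSG00000018848.4, GRCm38 chromosome 11, 35808381 to 35834506, minus strand), had 9.31, 9.71, 8.39 and 6.89 FPKM in triclocarban libraries 1 to 4, against 23.9, 24.7, 84.3 and 67.4 FPKM in control libraries 1 to 4. The treated libraries lay close together, while controls 3 and 4 were 3.12 times as high as controls 1 and 2 on average, and the change passed (log2 change -2.21, standard error 0.41, limma adjusted p = 0.00127). Against controls 1 and 2 alone the log2 change was -1.41, and against controls 3 and 4 alone it was -3.01; its size therefore depended on the pair of controls. For Yars these values were -2.13 and -3.32.

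Mars, which charges both the initiator and the elongator methionine tRNA of the cytosol (ENSMUSG00000040354.8, GRCm38 chromosome 10, 127296221 to 127311786, minus strand), had 1.13, 0.30, 0.84 and 0.77 FPKM in triclocarban libraries 1 to 4, against 4.62, 4.27, 3.82 and 3.69 FPKM in control libraries 1 to 4. The controls were even and the treated libraries all below them (log2 change -1.55, standard error 0.23, limma adjusted p = 0.000328). The exons of Mars share 68 bases with Ddit3, a stress-response gene on the other strand, which had 28.5 ± 4.18 FPKM with triclocarban and 31.7 ± 3.41 FPKM in controls and did not pass the threshold (log2 change -0.16, standard error 0.23, limma adjusted p = 0.622). Aars, the alanine enzyme (ENSMUSG00000031960.8, GRCm38 chromosome 8, 111033144 to 111057664, plus strand), had 3.42, 3.78, 2.78 and 2.73 FPKM in triclocarban libraries 1 to 4, against 10.1, 9.31, 11.9 and 11.8 FPKM in control libraries 1 to 4. It was 3.39-fold lower on average with controls that differed little (log2 change -1.50, standard error 0.24, limma adjusted p = 0.000495). In the annotation its exons share 1326 of 9282 bases with Exosc6, a gene on the same strand, and reads from these bases cannot be assigned from FPKM.

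Qars and Hars, the glutamine and histidine enzymes, were lower by less. Qars (ENSMUSG00000032604.8, GRCm38 chromosome 9, 108507706 to 108515941, plus strand) had 32.4, 26.2, 29.3 and 22.8 FPKM in triclocarban libraries 1 to 4, against 40.3, 45.9, 57.4 and 42.9 FPKM in control libraries 1 to 4. The groups did not overlap (log2 change -0.73, standard error 0.24, limma adjusted p = 0.0282). Hars (ENSMUSG00000001380.6, GRCm38 chromosome 18, 36766528 to 36783205, minus strand) had 7.18, 6.83, 5.86 and 6.49 FPKM in triclocarban libraries 1 to 4, against 9.61, 10.8, 14.3 and 13.4 FPKM in control libraries 1 to 4. Here too every treated library lay below every control (log2 change -0.77, standard error 0.24, limma adjusted p = 0.023). Neither passed after median-of-ratios scaling (limma adjusted p = 0.173 for Qars and limma adjusted p = 0.138 for Hars) or quantile normalization, both missed the threshold without triclocarban library 3 or 4 or without control 3 or 4, and Qars also without control 2 or after rescaling to TPM.

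The 4 cytosolic genes that were higher had modest changes. Tars, the threonine enzyme (ENSMUSG00000022241.5, GRCm38 chromosome 15, 11382301 to 11399665, minus strand), had 12.8, 8.75, 9.54 and 12.5 FPKM in triclocarban libraries 1 to 4, against 5.88, 5.51, 5.36 and 5.09 FPKM in control libraries 1 to 4. The controls lay within a narrow range, all below the treated libraries (log2 change 0.86, standard error 0.24, limma adjusted p = 0.0127), and 10.2% of all genes tested had treated libraries entirely above the controls. Nars, the asparagine enzyme (ENSMUSG00000024587.9, GRCm38 chromosome 18, 64499647 to 64516652, minus strand), had 48.2, 57.9, 46.4 and 54.5 FPKM in triclocarban libraries 1 to 4, against 24.1, 32.8, 40.7 and 28.9 FPKM in control libraries 1 to 4. It was also without overlap (log2 change 0.71, standard error 0.25, limma adjusted p = 0.0354).

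Wars, the tryptophan enzyme (ENSMUSG00000021266.10, GRCm38 chromosome 12, 108860030 to 108894174, minus strand), had 16.1, 6.32, 12.1 and 9.46 FPKM in triclocarban libraries 1 to 4, against 7.56, 5.25, 3.68 and 2.59 FPKM in control libraries 1 to 4. Triclocarban library 2 lay below control 1, so the groups overlapped (log2 change 1.06, standard error 0.35, limma adjusted p = 0.0285). Lars, the leucine enzyme of the complex (ENSMUSG00000024493.7, GRCm38 chromosome 18, 42202298 to 42262194, minus strand), had 5.12, 5.27, 3.67 and 5.77 FPKM in triclocarban libraries 1 to 4, against 1.03, 1.54, 3.87 and 2.63 FPKM in control libraries 1 to 4. Control 3 lay above triclocarban library 3 (log2 change 0.93, standard error 0.30, limma adjusted p = 0.0276). Leaving out triclocarban library 1 or 4 ended the calls of Nars, Wars and Lars. So did leaving out triclocarban library 3 for Nars and Wars, control 1 or 2 for Nars and Lars, and control 4 for Nars and Wars. Wars also missed the threshold without control 3, Wars and Lars without the filter on low genes, and Nars after rescaling to TPM without mitochondrially encoded genes and with the replicate number as a block.

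**Figure D2:**
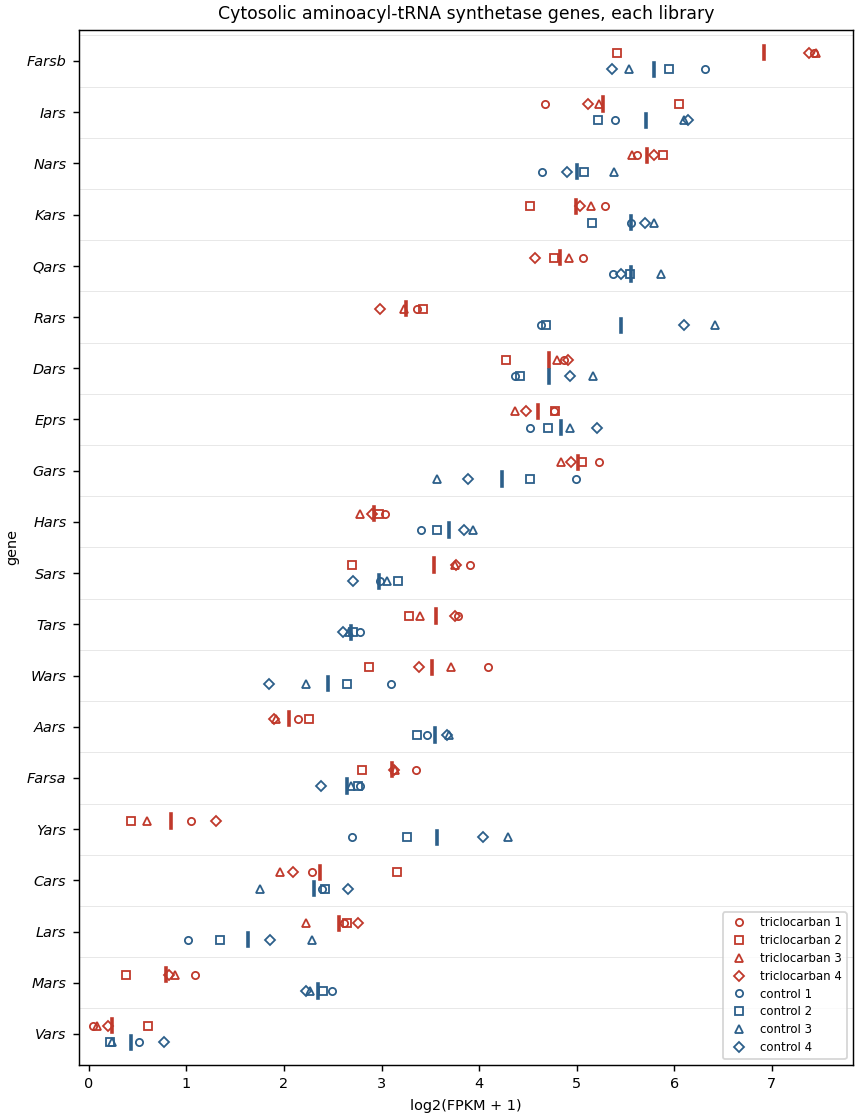
Level of each of the 20 cytosolic genes as log2(FPKM + 1) (horizontal axis) in the 4 triclocarban libraries (red, upper row of each gene) and the 4 controls (blue, lower row), with symbols for libraries 1 to 4 and vertical bars for the group means on this scale. Rars, Yars, Aars and Mars (lower with triclocarban) and Tars and Nars (higher) are among the genes that lie apart between the groups. Triclocarban library 2 (square) stands low for Farsb at 41.5 FPKM.

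The other cytosolic genes did not pass. Farsa and Farsb encode the subunits of a single enzyme, phenylalanyl-tRNA synthetase. Farsb (ENSMUSG00000026245.9, GRCm38 chromosome 1, 78417975 to 78488897, minus strand) had 172, 41.5, 175 and 166 FPKM in triclocarban libraries 1 to 4, against 78.5, 60.6, 45.5 and 40.0 FPKM in control libraries 1 to 4. It was the most abundant cytosolic synthetase transcript on average in both groups, and triclocarban library 2 was low, among the controls (log2 change 1.13, standard error 0.45, limma adjusted p = 0.0624). Without that library the change was 1.64 and passed (limma adjusted p = 0.00127); it also passed without control 1, with library weights and under each of the 4 other scalings. Farsa had 9.21, 5.95, 7.81 and 7.77 FPKM in triclocarban libraries 1 to 4, against 5.85, 5.76, 5.43 and 4.21 FPKM in control libraries 1 to 4. All treated libraries lay above the controls, but the change did not pass (log2 change 0.46, standard error 0.24, limma adjusted p = 0.155). It passed after median-of-ratios scaling (limma adjusted p = 0.0253) and quantile normalization. In every library Farsb stood above Farsa, by 6.97 to 22.4 times in treated libraries and 8.38 to 13.4 times in controls.

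Gars, the glycine enzyme of both compartments, had 36.6, 32.2, 27.6 and 29.6 FPKM in triclocarban libraries 1 to 4, against 30.8, 21.9, 10.8 and 13.7 FPKM in control libraries 1 to 4. Controls 3 and 4 were low and control 1 lay among the treated libraries (log2 change 0.78, standard error 0.32, limma adjusted p = 0.0718). It passed without controls 1 and 2 (limma adjusted p = 0.00233), without control 1, after median-of-ratios scaling, quantile normalization, and with the replicate number as a block (limma adjusted p = 0.0475). Kars, the lysine enzyme of both compartments, had 38.1, 21.9, 34.5 and 31.7 FPKM in triclocarban libraries 1 to 4, against 45.9, 34.8, 54.5 and 51.0 FPKM in control libraries 1 to 4. The groups overlapped at triclocarban library 1 and control 2 (log2 change -0.55, standard error 0.26, limma adjusted p = 0.113), and without controls 1 and 2 it passed (limma adjusted p = 0.0452). Sars, the serine enzyme, had 14, 5.50, 12.5 and 12.6 FPKM in triclocarban libraries 1 to 4, against 6.92, 7.98, 7.30 and 5.51 FPKM in control libraries 1 to 4. Triclocarban library 2 lay at the level of control 4, unlike the other treated libraries, which lay above all controls (log2 change 0.56, standard error 0.31, limma adjusted p = 0.168), and without it Sars passed (limma adjusted p = 0.0125), as it did with library weights and after median-of-ratios scaling or quantile normalization.

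Iars, the isoleucine enzyme, had 24.6, 65.2, 36.6 and 33.6 FPKM in triclocarban libraries 1 to 4, against 40.9, 36.3, 67.6 and 69.4 FPKM in control libraries 1 to 4. Triclocarban library 2 was high and controls 3 and 4 were above controls 1 and 2, and the change of -0.44 did not pass (limma adjusted p = 0.324); without triclocarban library 2 it was -0.70 (limma adjusted p = 0.0769). Eprs, which joins glutamate and proline activities in a single protein, had 23.4 ± 3.47 FPKM with triclocarban and 28.2 ± 6.09 FPKM in controls (limma adjusted p = 0.466). Dars, the aspartate enzyme, had 25.6 ± 4.93 FPKM with triclocarban and 26.1 ± 7.44 FPKM in controls (limma adjusted p = 0.988). Cars, the cysteine enzyme, had 4.49 ± 2.32 FPKM with triclocarban and 4.07 ± 1.23 FPKM in controls (limma adjusted p = 0.888), with triclocarban library 2 at 7.92 FPKM above all others. Vars, the valine enzyme, was under 1 FPKM in every library, 0.0269 to 0.518 FPKM in treated libraries and 0.158 to 0.708 FPKM in controls, and was not tested.

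By structural class, 8 class I genes of the cytosol were tested and 2 were higher (Lars and Wars) and 4 lower (Mars, Qars, Rars and Yars). Of 10 class II genes 2 were higher (Nars and Tars) and 2 lower (Aars and Hars). These come to 25% higher and 50% lower for class I and 20% each way for class II, beside 11.3% higher and 30.8% lower among all genes, and the difference between the classes was not tested. Eprs, with a domain of each class, was left out of both. Of the 8 synthetase genes of the multisynthetase complex, 1 was higher (Lars), 3 were lower (Mars, Qars and Rars) and 4 did not pass (Dars, Eprs, Iars and Kars), with a median change of -0.50. That is 12.5% higher and 37.5% lower, near the 11.3% and 30.8% of all genes. The complex also holds scaffold proteins. Eef1e1, which encodes the scaffold that binds the methionine enzyme, had 136, 115, 140.2 and 137 FPKM in triclocarban libraries 1 to 4, against 29.3, 38.1, 66.0 and 60.0 FPKM in control libraries 1 to 4. It was higher in every treated library (log2 change 1.50, standard error 0.29, limma adjusted p = 0.00177). Aimp2, another scaffold, had 44.1, 7.65, 33.4 and 28.9 FPKM in triclocarban libraries 1 to 4, against 56.8, 57.1, 158 and 122 FPKM in control libraries 1 to 4. It was lower in every treated library (log2 change -1.84, standard error 0.51, limma adjusted p = 0.0135), while Aimp1 had 2.80 ± 1.13 FPKM with triclocarban and 2.13 ± 0.582 FPKM in controls and did not pass (limma adjusted p = 0.531).

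Mitochondrial synthetase transcripts were spread over a wider range of levels. Between 6 and 7 of the 16 had at least 1 FPKM in treated libraries, against 9 to 12 in controls, and their median level was 0.573 to 0.695 FPKM in treated libraries, against 1.34 to 2.87 FPKM in controls. The number of cytosolic genes with at least 1 FPKM was 17 to 19 of 20 in treated libraries and 19 in each control, with medians of 8.33 to 13.4 FPKM in treated libraries and 9.84 to 13.6 FPKM in controls. The median cytosolic level was 14.5 to 20.6 times the median mitochondrial level in treated libraries and 4.72 to 7.51 times in controls. Summed over all members, cytosolic FPKM was 440.4 ± 61.2 in treated libraries and 426 ± 61.8 in controls (SD, n = 4 each). The difference was smaller than the spread between libraries, and a large share of the sum was Farsb, which was not called. It held 35.1, 11.8, 37.8 and 36.2% of the sum in triclocarban libraries 1 to 4, against 20.3, 16.6, 9.06 and 8.91% in control libraries 1 to 4. Without it, a sum chosen after the levels were seen, the cytosolic genes came to 318, 309, 288 and 292 FPKM in triclocarban libraries 1 to 4, against 309, 305, 457 and 409 FPKM in control libraries 1 to 4. Controls 1 and 2 then lay within the range of the treated libraries and controls 3 and 4 above it, so that the groups still overlapped.

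The mitochondrial sum was 196 ± 68.4 FPKM in treated libraries and 155 ± 20.9 FPKM in controls (SD, n = 4 each), and was carried by Lars2 and Fars2. Together they held 88.7 to 95.4% of it in treated libraries and 52.1 to 83.5% in controls. The remaining 14 genes, a sum chosen after the levels were seen, came to 16.4, 13.4, 15.1 and 16.8 FPKM in triclocarban libraries 1 to 4, against 29.8, 32.7, 66.5 and 56.7 FPKM in control libraries 1 to 4. The treated libraries lay close together and below all controls, and controls 3 and 4 were higher than controls 1 and 2. Within the sum of 14 genes, Mars2, Cars2 and Ears2, all called lower, differed most between the group means. Mars2 had 0.529 FPKM with triclocarban and 14.6 FPKM in controls, Cars2 2.41 and 10.9, and Ears2 0.335 and 4.80. Rars2, Wars2 and Pars2 had higher means with triclocarban, as had Lars2 and Fars2, which were left out. No test was made of these sums.

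**Figure D3:**
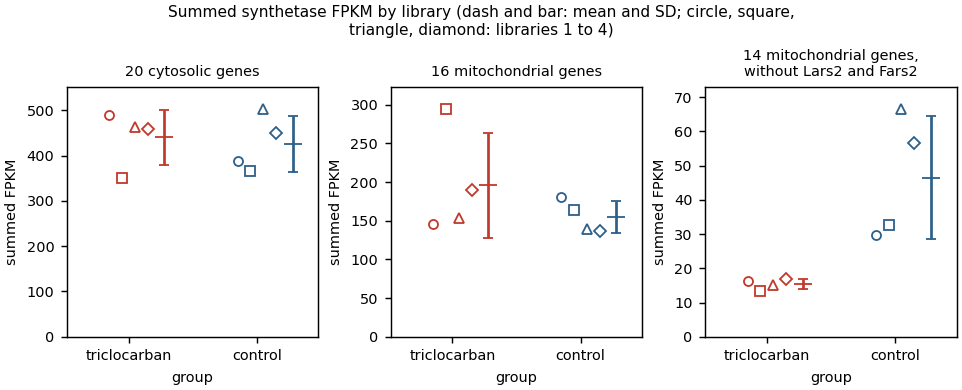
Summed FPKM (vertical axes, each from 0) per library of the 20 cytosolic genes (left), the 16 mitochondrial genes (middle) and the 14 mitochondrial genes other than Lars2 and Fars2 (right), for triclocarban (red) and control (blue), with the mean and SD of 4 libraries. The cytosolic sums overlap between the groups, and the sum of the 14 genes is 13.4 to 16.8 with triclocarban and 29.8 to 66.5 in controls.

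Mars2, the mitochondrial methionine enzyme (ENSMUSG00000046994.8, GRCm38 chromosome 1, 55237177 to 55248470, plus strand), had the deepest fall of all 29 synthetase genes tested. It had 0.51, 0.27, 0.41 and 0.92 FPKM in triclocarban libraries 1 to 4, against 10.1, 8.59, 21.3 and 18.4 FPKM in control libraries 1 to 4. Every treated library was under 1 FPKM and every control above 8 FPKM, a mean 27.6-fold lower with triclocarban (0.529 ± 0.279 FPKM with triclocarban and 14.6 ± 6.20 FPKM in controls; log2 change -3.28, standard error 0.32, limma adjusted p = 5.21e-05). A level under 1 FPKM in all treated libraries and of at least 1 FPKM in all controls was seen for 4.56% of all genes tested, Mars2 and Ears2 among them. Mtfmt, which formylates the methionyl-tRNA that Mars2 makes, had 6.53 ± 2.64 FPKM with triclocarban and 3.01 ± 0.710 FPKM in controls and did not pass (log2 change 0.83, standard error 0.33, limma adjusted p = 0.0628).

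Ears2, the mitochondrial glutamate enzyme (ENSMUSG00000030871.4, GRCm38 chromosome 7, 122037213 to 122067263, minus strand), had 0.39, 0.19, 0.34 and 0.43 FPKM in triclocarban libraries 1 to 4, against 2.38, 3.95, 5.85 and 7.02 FPKM in control libraries 1 to 4. It was 14.3-fold lower on average (log2 change -2.05, standard error 0.28, limma adjusted p = 0.000222). Ears2 also places glutamate on the mitochondrial glutamine tRNA, which an amidotransferase then converts. Of the genes for that amidotransferase, Qrsl1 was lower, with 1.14 ± 0.820 FPKM with triclocarban and 2.99 ± 0.533 FPKM in controls (log2 change -0.97, standard error 0.29, limma adjusted p = 0.0189), and Gatb (0.24, limma adjusted p = 0.557) and Gatc (-0.63, limma adjusted p = 0.127) did not pass. Cars2, the mitochondrial cysteine enzyme (ENSMUSG00000056228.8, GRCm38 chromosome 8, 11513977 to 11550783, minus strand), had 2.12, 3.21, 2.48 and 1.82 FPKM in triclocarban libraries 1 to 4, against 7.85, 6.67, 17.6 and 11.6 FPKM in control libraries 1 to 4. It was lower in every treated library (log2 change -1.74, standard error 0.31, limma adjusted p = 0.00115).

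Tars2, the mitochondrial threonine enzyme (ENSMUSG00000028107.8, GRCm38 chromosome 3, 95739976 to 95760206, minus strand), was low throughout, with 0.67, 1.04, 0.40 and 0.45 FPKM in triclocarban libraries 1 to 4, against 1.37, 1.12, 2.55 and 2.83 FPKM in control libraries 1 to 4. Only triclocarban library 2 was above 1 FPKM among treated libraries (log2 change -0.83, standard error 0.25, limma adjusted p = 0.0209). The call was lost without triclocarban library 3 or 4, without control 3 or 4, without the filter on low genes (limma adjusted p = 0.062), and after median-of-ratios scaling (limma adjusted p = 0.0619) or quantile normalization. For each of these 4 genes controls 3 and 4 were above controls 1 and 2, with ratios of means of 2.12 for Mars2, 2.03 for Ears2, 2.02 for Cars2 and 2.16 for Tars2. Among tested synthetases both of controls 3 and 4 lay above both of controls 1 and 2 for 15 of 29 genes, and below them for 8, where all genes tested gave 30.9% above and 43.3% below. Triclocarban library 2 was the highest treated library for 9 of the 29 and the lowest for 14, where all genes tested gave 30.7% and 44.9%.

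Rars2, the mitochondrial arginine enzyme (ENSMUSG00000028292.8, GRCm38 chromosome 4, 34614957 to 34660167, plus strand), was the mitochondrial gene that was higher. It had 5.77, 4.37, 5.03 and 6.16 FPKM in triclocarban libraries 1 to 4, against 1.01, 1.56, 1.51 and 3.34 FPKM in control libraries 1 to 4. All treated libraries lay above all controls (log2 change 1.20, standard error 0.28, limma adjusted p = 0.00485). Its change was 1.47 against controls 1 and 2 alone, 0.93 against controls 3 and 4 alone, and passed in both.

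**Figure D4:**
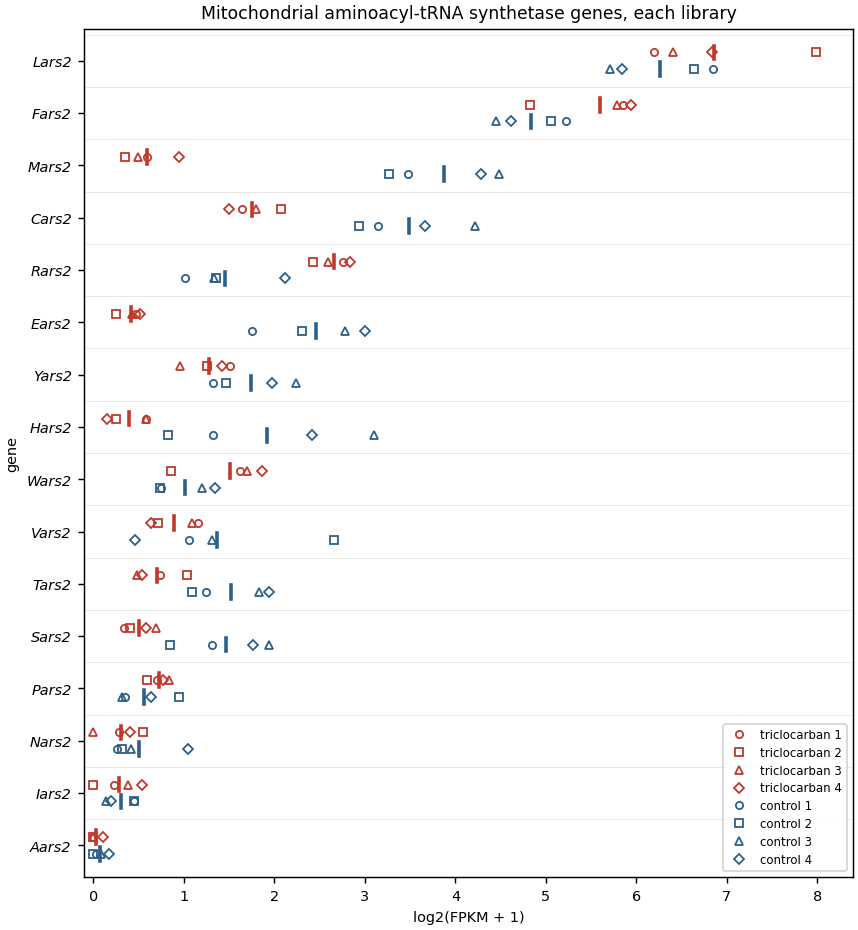
Level of each of the 16 mitochondrial genes as log2(FPKM + 1) (horizontal axis) in the 4 triclocarban libraries (red, upper row of each gene) and the 4 controls (blue, lower row), with symbols for libraries 1 to 4 and vertical bars for the group means on this scale. Lars2 and Fars2 have the highest means in both groups. Mars2, Cars2 and Ears2 (lower with triclocarban) and Rars2 (higher) are among the genes that lie apart between the groups, with Mars2 under 1 FPKM in each treated library.

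Lars2 and Fars2, the mitochondrial leucine and phenylalanine enzymes, were the most abundant of the mitochondrial set on average in both groups. Lars2 (ENSMUSG00000035202.7, GRCm38 chromosome 9, 123366927 to 123462666, plus strand) had 72.3, 253, 83.8 and 113 FPKM in triclocarban libraries 1 to 4, against 114, 98.6, 51.4 and 56.5 FPKM in control libraries 1 to 4. Triclocarban library 2 was far above the rest and the change did not pass (log2 change 0.60, standard error 0.41, limma adjusted p = 0.272). Without that library the log2 change was 0.22 (limma adjusted p = 0.606). Fars2 (ENSMUSG00000021420.6, GRCm38 chromosome 13, 36117412 to 36726280, plus strand) had 56.8, 27.3, 54.0 and 60.2 FPKM in triclocarban libraries 1 to 4, against 36.3, 32.2, 20.8 and 23.6 FPKM in control libraries 1 to 4. Triclocarban library 2 was again apart, this time low and among the controls (log2 change 0.76, standard error 0.31, limma adjusted p = 0.0692), and without it Fars2 passed (limma adjusted p = 0.00828). Fars2 also passed without control 1, without controls 1 and 2, with library weights, after median-of-ratios scaling (limma adjusted p = 0.0108), quantile normalization and rescaling to TPM. Its exons share 115 bases with Lyrm4, a gene on the other strand for a partner of mitochondrial iron-sulfur cluster assembly, which had 408, 202, 383 and 399 FPKM in triclocarban libraries 1 to 4, against 287, 239.9, 91.6 and 112 FPKM in control libraries 1 to 4. The strand setting of the counting is not given, so reads from those bases cannot be assigned, and the part of Lyrm4 in the Fars2 level was not tested. Further overlaps of exons with a gene on the other strand were 501 bases of Fars2 with Nrn1, 422 bases of Cars2 with Naxd, 248 bases of Farsb with Sgpp2, 89 bases of Ears2 with Ubfd1 and 30 bases of Yars with C77080. Cars shared 211 bases with the pseudogene Gm15580, and Nars2, which was not tested, 284 bases with C230038L03Rik. Iars2, also not tested, shared 2034 of its 8885 exon bases with Rab3gap2, which was higher (log2 change 0.95, limma adjusted p = 0.0283), and 114 with 2010103J01Rik.

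The low mitochondrial genes gave no further calls. Yars2, for tyrosine, had 1.84, 1.38, 0.94 and 1.67 FPKM in triclocarban libraries 1 to 4, against 1.49, 1.75, 3.71 and 2.92 FPKM in control libraries 1 to 4. The change did not pass (log2 change -0.46, standard error 0.26, limma adjusted p = 0.181), and passed only without controls 1 and 2 among the settings tried (limma adjusted p = 0.0226). Wars2, for tryptophan, had 2.07, 0.81, 2.25 and 2.65 FPKM in triclocarban libraries 1 to 4, against 0.68, 0.67, 1.3 and 1.54 FPKM in control libraries 1 to 4. It did not pass either (log2 change 0.50, standard error 0.27, limma adjusted p = 0.161), and passed without triclocarban library 2, with library weights and after quantile normalization. Vars2, for valine, had 0.882 ± 0.337 FPKM with triclocarban and 2.06 ± 2.21 FPKM in controls (limma adjusted p = 0.359), with control 2 at 5.29 FPKM; the log2 change of -0.47 was -0.046 without control 2. Its exons share 465 bases with the antisense gene Gm20483, so its values are uncertain.

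Of the members below the filter, Hars2, for histidine, had 0.49, 0.19, 0.49 and 0.11 FPKM in triclocarban libraries 1 to 4, against 1.49, 0.77, 7.56 and 4.33 FPKM in control libraries 1 to 4. Sars2, for serine, had 0.26, 0.32, 0.61 and 0.49 FPKM in triclocarban libraries 1 to 4, against 1.48, 0.80, 2.84 and 2.39 FPKM in control libraries 1 to 4. Both had treated libraries below all controls but at least 1 FPKM in 3 libraries only, all of them controls. Without the filter, Sars2 passed (log2 change -0.97, limma adjusted p = 0.0352) and Hars2 did not (-1.53, limma adjusted p = 0.0546); without it 4.05% of 28046 genes were higher and 15.7% lower. Hars and Hars2 lie head to head and their exons share 195 bases in the annotation, so reads there cannot be assigned. Aars2, Iars2 and Pars2 stayed under 1 FPKM in all 8 libraries, and Nars2 in all but control 4, where it had 1.06 FPKM. Together with Vars, these made up the 7 of 36 genes that were not tested.

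Cytosolic and mitochondrial enzymes for the same amino acid were set side by side for 14 pairs, with Farsa standing for the cytosolic phenylalanine enzyme. In 8 pairs the cytosolic gene had the higher FPKM in all 8 libraries. The phenylalanine pair was not among them, as Farsa lay below Fars2 in every library. Farsb, the other subunit, lay above Fars2 in every library, so this count depends on the subunit chosen. Both genes were tested in 8 pairs. Of these, 1 pair was lower in both compartments (Mars and Mars2), 0 pairs were higher in both, and 2 pairs had calls in opposite directions. Mars2 passed the filter on low values through the controls alone, so that it had to be lower. Mars reached 1 FPKM in only 1 treated library. In the arginine pair Rars was lower (-2.21) and Rars2 higher (1.20). In the threonine pair Tars was higher (0.86) and Tars2 lower (-0.83), a call that was lost under several settings. For arginine the cytosolic minus the mitochondrial level was 0.61, 1.00, 0.64 and 0.14 log2 units of FPKM + 1 in triclocarban libraries 1 to 4, against 3.63, 3.33, 5.09 and 3.98 in control libraries 1 to 4. For threonine it was 3.04, 2.25, 2.92 and 3.22 in triclocarban libraries 1 to 4, against 1.54, 1.62, 0.84 and 0.67 in control libraries 1 to 4. Both pairs were singled out for their opposite calls, and for both the groups' ranges did not overlap. The same held for the pairs of Cars, Mars and Yars, which makes 5 of the 8 pairs with both genes tested. Each of these 5 pairs holds at least 1 gene called on its own, so the gaps are not separate evidence. Of single genes tested 40.2% were without overlap, and no such share was computed for other pairs of genes. The level of Cars minus that of Cars2 was 0.16 to 1.08 log2 units with triclocarban and -2.46 to -0.52 in controls. For Mars and Mars2 it was -0.12 to 0.50 with triclocarban and -2.21 to -0.86 in controls, and for Yars and Yars2 -0.82 to -0.11 with triclocarban and 1.38 to 2.07 in controls. No test was made of the differences within pairs.

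**Figure D5:**
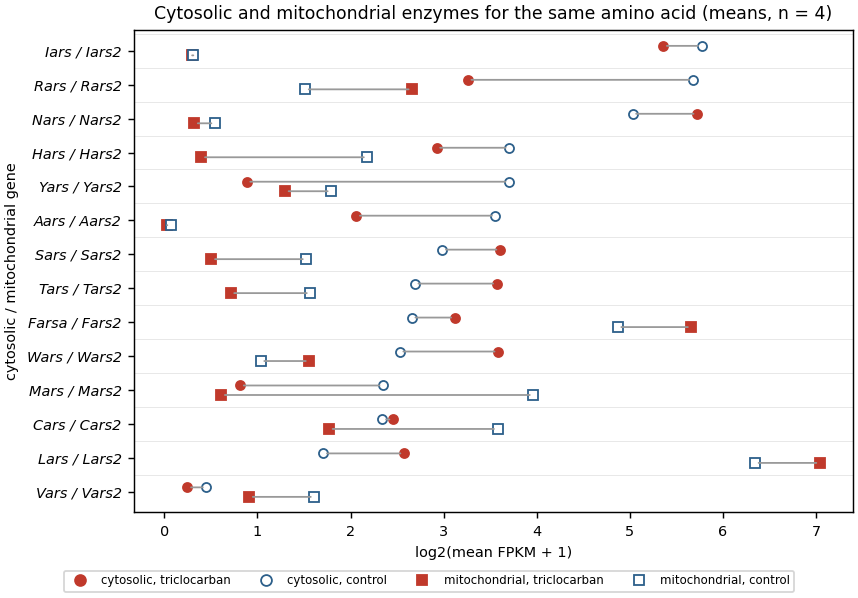
Mean level as log2(mean FPKM + 1) (horizontal axis, n = 4 libraries per group) of the cytosolic gene (circles, upper row) and the mitochondrial gene (squares, lower row) for the same amino acid, with triclocarban filled in red and control open in blue, joined by a line. Rars and Rars2 move in opposite directions, with means of 8.58 and 5.33 FPKM with triclocarban and 50.1 and 1.85 FPKM in controls.

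Other genes that handle tRNA were measured in the same fit. Of 14 tested partners of charging, 2 were higher (Eef1e1 and Dtd2) and 4 lower (Aimp2, Prorsd1, Qrsl1 and Xpot), and 42.9% were called, beside 42.1% of all genes. Xpot, which encodes the exportin that carries tRNA out of the nucleus, had 0.17, 0.55, 0.08 and 0.16 FPKM in triclocarban libraries 1 to 4, against 1.86, 2.29, 3.82 and 3.23 FPKM in control libraries 1 to 4. It was lower in every treated library (log2 change -1.60, standard error 0.23, limma adjusted p = 0.000321). Xpot passed the filter on low values through the controls alone, so that it had to come out lower. Prorsd1, which encodes a protein with an editing domain like that of prolyl-tRNA synthetases, had 6.83 ± 4.12 FPKM with triclocarban and 43.8 ± 21.6 FPKM in controls (log2 change -2.56, standard error 0.47, limma adjusted p = 0.00127).

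Of 21 tested genes for tRNA processing, 1 was higher, Pop4, and 10 were lower, 47.6% beside 30.8% of all genes, with a median change of -0.87. Tsen34, which encodes a subunit of the tRNA splicing endonuclease, had 0.99, 0, 1.69 and 0.13 FPKM in triclocarban libraries 1 to 4, against 11.9, 13.9, 11.6 and 11.4 FPKM in control libraries 1 to 4. It was lower in every treated library (log2 change -3.07, standard error 0.33, limma adjusted p = 7.25e-05), and Tsen54 (-1.94) and Tsen15 (-2.07), which also encode subunits of it, were lower by the same test. Rpp40, for a protein of ribonuclease P, which trims the 5′ end of tRNA precursors, had 1.17 ± 0.764 FPKM with triclocarban and 22.0 ± 10.9 FPKM in controls (log2 change -3.36, standard error 0.40, limma adjusted p = 0.000122). Trmt10c, for a subunit of the mitochondrial ribonuclease P, had 3.94 ± 1.15 FPKM with triclocarban and 31.8 ± 15.4 FPKM in controls (log2 change -2.65, standard error 0.34, limma adjusted p = 0.000174). Of 9 tested translation factors of mitochondria, Gfm1, an elongation factor, was higher, with 17.3 ± 1.92 FPKM with triclocarban and 8.63 ± 2.29 FPKM in controls (log2 change 0.94, standard error 0.25, limma adjusted p = 0.011), Mtif2, an initiation factor, was lower, with 4.43 ± 1.33 FPKM with triclocarban and 8.46 ± 2.56 FPKM in controls (log2 change -0.79, standard error 0.29, limma adjusted p = 0.0459), and 7 did not pass, so that 22.2% were called, beside 42.1% of all genes.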

How the data were processed

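The deposited file was a table of FPKM for 37310 genes in 8 libraries, with no counts. Per the submitters' processing notes, the tools were DESeq2 1.30.1, featureCounts, StringTie and STAR, with mm10 as the build and no role or order named, and the authors' FPKM are taken as deposited. Per the labels' protocols 2 ways of making libraries are described, and which one served these libraries is not given in the sources used here.

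Symbols and coordinates came from GENCODE M21 (GRCm38), which matched 32620 of 37310 identifiers (87.4%) and all 36 synthetase genes. Genes that reached 1 FPKM in 4 or more of 8 libraries were fitted as log2(FPKM + 1) with limma 3.58.1 (R 4.3.3; lmFit and eBayes with trend, 6 residual degrees of freedom before moderation), treated against control, with Benjamini-Hochberg adjustment over all 12941 genes and a threshold of 0.05. A fold change on this scale understates the change of low genes. Fitting was tested on simulated data. Alternatives covered the pseudocount, the filter, scaling, library weights, eBayes settings, the replicate number and left-out libraries.

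The 36 members and all lists were chosen with earlier results of these data known. All 36 were to be accounted for, and of each other list up to 4 genes with the smallest adjusted p were to be named; Cth, Atf4, Dtd2, Qrsl1, Gatb, Gatc, Mtfmt, Aimp1, Tsen15 and Pop4 were added after their values were seen. Whole fragment numbers could not be recovered. At the best of many depths tried, 7.86 to 9.46% of low values were whole within 0.02. Chance gives 4.0% at a fixed depth, and its share at the best of many depths was not computed. Depth is therefore unknown, and no counting interval is given. Plots and tables were made in Python 3.11.15 (pandas 2.3.3, numpy 2.4.6, scipy 1.17.1, matplotlib 3.10.9).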

Additional observations from a re-analysis of the deposited data

Results flagged for a closer look

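Of 58 sets of 4 libraries (29 genes tested in each of 2 groups), 1 held a library far from the others by Dixon's criterion, where chance gives about 1 in 20 sets. Farsb had 41.5 FPKM in triclocarban library 2, and its gap to the nearest of the other treated libraries was 0.936 of their whole range, above Dixon's 95% critical value for 4 libraries. The other 3 treated libraries had 172, 175 and 166 FPKM, and controls 40.0 to 78.5 FPKM.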

How the results depend on the processing

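Of 658 values of single synthetase genes under 23 alternatives, 567 kept their direction and their side of the threshold, 46 lost the call, 30 gained one and 15 turned in direction. The 15 that turned belong to Dars, Eprs, Cars and Vars2, which did not pass. Without the filter the mitochondrial median was -0.33 and 2 cytosolic genes were higher. With a pseudocount of 0.1 the mitochondrial median was -0.66 and with 5 it was -0.21. With a mean of at least 5 FPKM required, 0 mitochondrial genes were higher, and 2 mitochondrial genes and 2487 of all genes were lower. After median-of-ratios scaling the medians were 0.29 for cytosolic, -0.29 for mitochondrial and 0.057 for all genes, and 8 cytosolic, 2 mitochondrial and 2638 of all genes were higher. Quantile normalization gave medians of 0.32, -0.074 and 0.14 and counts of 8, 3 and 2915 for the same. After rescaling to TPM 2 mitochondrial genes were higher, and with library weights 3, with a cytosolic median of -0.23. Without controls 1 and 2 the cytosolic median was -0.34, and 2 mitochondrial and 2838 of all genes were higher. Without controls 3 and 4 the mitochondrial median was -0.29 and 695 of all genes were higher. The cause of these shifts was not tested.

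Leaving out 1 library at a time gave 1 to 6 higher and 4 to 6 lower cytosolic genes, 1 to 3 higher and 3 to 4 lower mitochondrial genes, and 953 to 1860 higher and 3469 to 4180 lower of all genes. The medians ran from -0.19 to 0.062 for cytosolic and -0.59 to -0.30 for mitochondrial genes. Values that turned in direction were those of Dars (0.29 after median-of-ratios scaling, 0.32 after quantile normalization, 0.074 after rescaling to TPM, 0.15 with library weights, 0.32 without controls 3 and 4, and -0.12 to 0.14 with 1 library left out) and of Eprs (0.050 and 0.081 under the same first 2 settings). The same held for Cars (-0.23 with library weights, -0.031 without controls 3 and 4, and -0.19 to 0.20 with 1 library left out) and Vars2 (0.013 without controls 1 and 2).

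Whether replicate numbers pair the libraries was not settled. Same-numbered libraries of the 2 groups had correlations of deviations of 0.338, 0.053, 0.095 and 0.104. Triclocarban libraries 1, 3 and 4 and controls 1, 3 and 4 correlated best with their own number. For triclocarban libraries 3 and 4 the next values were close, 0.081 and 0.08. Triclocarban library 2 correlated best with control 4 (0.082), and control 2 with triclocarban library 1 (0.144). With the number as a block 1544 of all genes were higher and 4061 lower; Gars gained the call (limma adjusted p = 0.0475) and Nars lost it (limma adjusted p = 0.0519). Unknown depth limits what can be said of genes near or under 1 FPKM.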
